A study of Mus musculus with 13 samples.

Results

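The genes described here encode the SMAD proteins and the Smurf ubiquitin ligases, and they were chosen by symbol from the 48709 mouse genes in the deposited counts. All 10 chosen genes were found, namely Smad1, Smad2, Smad3, Smad4, Smad5, Smad6, Smad7, Smad9, Smurf1 and Smurf2, and all 10 passed the filter on low counts. They were measured by bulk RNA-seq in enamel organs (the epithelium of the tooth, which lays down enamel) taken from mandibular incisors at postnatal day 11. The Het group holds 5 libraries from mice with 1 copy of Tgfbr2 that carries the G357W substitution (labelled Tgfbr2-G357W/+), a model of Loeys-Dietz syndrome type II, a connective tissue disorder. The WT group holds 8 libraries from Tgfbr2-+/+ littermates, with no agent or other allele named for either group. The sources used here give no strain or sex, each library was taken as 1 mouse, and p-values measure the spread between these libraries. The comparison asks whether transcripts of the intracellular arm of TGF-beta signalling differ when 1 copy of the type II receptor is mutated.

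SMAD proteins carry signals of the TGF-beta family from receptors at the cell surface to the nucleus. Ligand-bound receptors phosphorylate the receptor SMADs, of which Smad2 and Smad3 serve TGF-beta and activin, and Smad1, Smad5 and Smad9 serve BMPs. Phosphorylated receptor SMADs join the common Smad4 and act on target genes. The inhibitory Smad6 and Smad7 are themselves induced by these signals and close a negative feedback loop, and Smurf1 and Smurf2 are HECT-type ubiquitin ligases that mark receptor SMADs and, recruited by Smad7, receptors for degradation. Most of this control acts on the proteins, which transcript counts do not show. In the enamel organ, TGF-beta and BMP signals take part in the differentiation of ameloblasts, the cells that lay down enamel.

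The 5 Het libraries held 20266079 to 26122340 counts each, the 8 WT libraries 18852382 to 26508410. Of 16328 genes tested, 14 passed an adjusted p of 0.05 in edgeR, or 0.0857%, and 7 of them (0.0429%) were lower in Het. Markers of enamel epithelium were abundant, summing to 221597 to 332714 CPM (counts scaled to library size) in Het and 201774 to 344634 CPM in WT, 71.8% of it from the enamel matrix gene Ambn. Of its 13 genes tested, 6 had negative log2 fold changes and 0 were called, and 2 were lower in Het at an unadjusted p under 0.05, Amtn at -0.45 ± 0.15 and Klk4 at -0.30 ± 0.13 (SE, edgeR adjusted p = 0.502 and 0.666), both genes of the maturation stage of enamel. Markers of other cells were present too. The osteoblast and odontoblast list (11 of 11 genes tested, none listed at 0) summed to 2315 to 5176 CPM in Het and 2947 to 7176 in WT, and the fibroblast and mesenchyme list (10 of 11 tested, none at 0) to 4482 to 10010 in Het and 5536 to 12169 in WT. Col1a1, which is in both of these lists, made up 74.3% of the osteoblast and odontoblast sum and 38.5% of the fibroblast and mesenchyme sum. In such bulk samples fewer cells of a type and less RNA per cell cannot be told apart. Column names carry a number before a hyphen (1, 4 or 5, called the library prefix here) whose meaning the sources used here do not give. There are 1 Het and 3 WT libraries with prefix 1, 2 Het and 3 WT with prefix 4, and 2 of each genotype with prefix 5.

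None of the 10 genes differed between Het and WT past the threshold, with adjusted p from 0.635 for Smad7 to 0.984 for Smurf1 (edgeR quasi-likelihood test, Benjamini-Hochberg adjustment over 16328 genes). The largest difference was that of Smad7, which was lower in Het without passing the test. The log2 fold change was below 0 for 4 of the 10 and above 0 for 6, and its median was 0.02, where 50.9% of all genes tested were negative and their median was -0.0044. At an unadjusted p under 0.05 stood 1 of the 10, Smad7, against 6.90% of all genes tested, so the count is near the background. For 0 of the 10 were the Het and WT ranges apart, as they were for 0.490% of all genes. Every unadjusted 95% interval of the 10 fold changes lay between 0.603-fold and 1.48-fold.

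**Figure D1:**
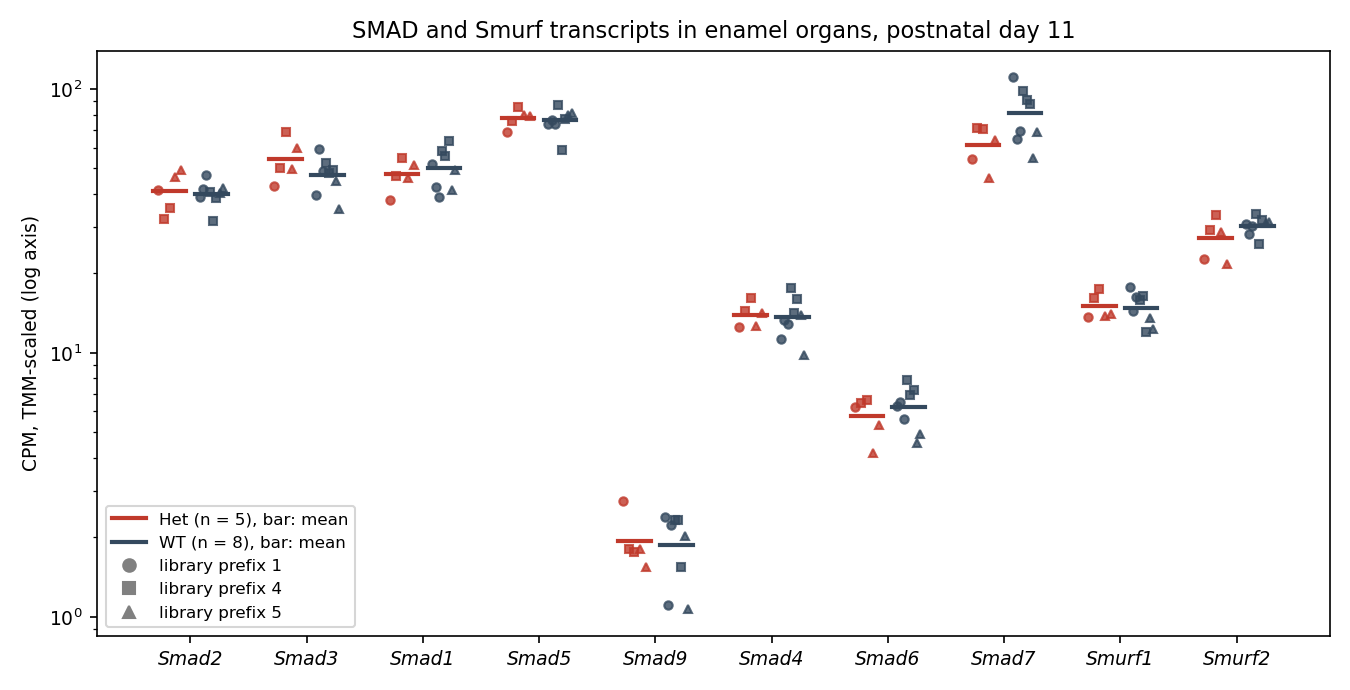
TMM-scaled CPM of the 10 genes on a log axis, 1 point per library, Het (red, n = 5) left of WT (dark, n = 8), with bars at the means and symbols for the library prefix. The genotypes overlap for every gene, and for Smad7 all 5 Het points lie below the WT median of 78.7 CPM, 2 of them below every WT point.

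The promoters of 7 of the 10 genes were matched by symbol in a RefSeq table for GRCm38.p6. For the 3 of these with the differences farthest from 0 (Smad3, Smurf2 and Smad6), the 250 bases before the transcription start are shown, 5′ to 3′ along the gene, so that the letters known to bind SMADs can be looked for beside the values that follow. Capitals mark CAGAC, which holds the letters read by the DNA-binding domains of Smad3 and Smad4, GTCTAGAC, its palindromic form, and GGCGCC, a GC-rich element of BMP-responsive genes, searched on both strands. Those of Smad3 and Smad6 lie on the minus strand at chr9:63757995-63758244 and chr9:64022060-64022309, and that of Smurf2 on the minus strand at chr11:106920716-106920965.
Smad3: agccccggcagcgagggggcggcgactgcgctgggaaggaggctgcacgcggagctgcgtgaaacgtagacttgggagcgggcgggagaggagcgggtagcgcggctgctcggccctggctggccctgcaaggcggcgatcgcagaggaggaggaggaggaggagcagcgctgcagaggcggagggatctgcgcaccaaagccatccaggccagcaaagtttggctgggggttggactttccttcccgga
Smad6: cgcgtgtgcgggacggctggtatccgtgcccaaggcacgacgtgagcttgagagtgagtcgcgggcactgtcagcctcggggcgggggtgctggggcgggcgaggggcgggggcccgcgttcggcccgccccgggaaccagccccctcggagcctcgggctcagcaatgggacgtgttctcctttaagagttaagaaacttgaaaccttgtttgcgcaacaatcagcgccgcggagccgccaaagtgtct
Smurf2: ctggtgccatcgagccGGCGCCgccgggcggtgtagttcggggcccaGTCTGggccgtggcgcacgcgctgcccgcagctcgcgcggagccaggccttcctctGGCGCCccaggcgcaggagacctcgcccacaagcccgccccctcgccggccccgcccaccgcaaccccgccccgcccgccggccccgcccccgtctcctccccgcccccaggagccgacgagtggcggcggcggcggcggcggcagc
The Smurf2 promoter held GGCGCC at 2 places and CAGAC at 1 place, 203 bases before it. The windows of Smad3 and Smad6 held none of the 3 motifs in full. The shorter AGAC within CAGAC was not searched for alone. It stands in both windows, as AGAC in Smad3 and, read on the other strand, as GTCT in Smad6. Over all 32851 promoter windows of this length in the table, 42.2% held CAGAC, 9.59% held GGCGCC and 0.167% held GTCTAGAC. The windows had a GC content of 69.2% in Smad3, 66.8% in Smad6 and 82.0% in Smurf2, where the median of the table was 52.4%. Smad3 and Smad6 are neighbours on chromosome 9, with 195081 bases and 0 annotated protein-coding genes between them.

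Among the receptor SMADs of TGF-beta, Smad3 was somewhat higher in Het and Smad2 was about level. Smad3 (ENSMUSG00000032402, chromosome 9, 63646767 to 63757994, minus strand, GRCm38) had 42.9, 50.3, 68.6, 49.8 and 59.5 CPM in the Het libraries 1-2, 4-2, 4-5, 5-5 and 5-6, and from 35.2 to 59.2 CPM with a median of 48.4 in WT. Thus 4 of the 5 Het libraries were above the WT median and 2 above every WT library, while 2 WT libraries were below every Het library. The log2 fold change was 0.20 ± 0.13 (SE), or 1.15-fold with a 95% interval of 0.954 to 1.38 (edgeR adjusted p = 0.788). It did not hold in every prefix, with Het minus WT differences in mean log2 CPM of -0.18, 0.23 and 0.45 in prefixes 1, 4 and 5. Without Het 4-5, its highest library, the log2 fold change was 0.11.

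Smad2 (ENSMUSG00000024563, chromosome 18, 76241580 to 76310963, plus strand) had 41.4, 32.0, 35.4, 46.3 and 49.4 CPM in Het and from 31.6 to 47.3 CPM with a median of 40.5 in WT. The groups overlapped, with 1 Het library above and 1 WT library below all those of the other genotype. Its log2 fold change was 0.03 ± 0.11 (SE, edgeR adjusted p = 0.977), and the interval of 0.862-fold to 1.20-fold bounds the difference. Levels of Smad2 went with the prefix, with means of 42.3, 35.7 and 44.6 CPM in prefixes 1, 4 and 5. Across the 13 libraries its r with the mean of the endothelium and pericyte list was -0.61 (rho -0.65, permutation p = 0.0274 and 0.0180), with an adjusted p of 0.414 for both over the 70 relations of the 10 genes with 7 marker lists, and r was -0.49 without the 2 libraries farthest from the list's median. Centred within prefix and genotype it was -0.45. Smad2 had r of -0.64 with the nerve and Schwann cell list (rho -0.48, permutation p = 0.0191 and 0.0975, adjusted p = 0.414 and 0.597) and -0.58 with the fibroblast and mesenchyme list (rho -0.60, permutation p = 0.0372 and 0.0318, adjusted p = 0.414 for both). Without the 2 libraries these were -0.30 and -0.59, and centred -0.42 and -0.03, and the part of any of these cells in the Smad2 values was not tested.

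The BMP receptor SMADs were expressed at very different levels and none stood apart between genotypes. Smad5 (ENSMUSG00000021540, chromosome 13, 56703010 to 56742377, plus strand) had 68.6, 75.7, 85.8, 79.6 and 78.7 CPM in Het, and from 58.7 to 87.2 CPM with a median of 76.6 in WT. All 5 Het libraries lay inside the WT range, the log2 fold change was 0.03 ± 0.10 (SE, edgeR adjusted p = 0.969), and its interval of 0.888-fold to 1.18-fold was the narrowest of the 10. Smad5 also varied least between libraries of a genotype, with a biological coefficient of variation of 0.133, where the median over all genes tested was 0.204.

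Smad1 (ENSMUSG00000031681, chromosome 8, 79338395 to 79399518, minus strand) had 38.0, 47.0, 54.9, 45.9 and 51.6 CPM in Het, and from 38.9 to 63.4 CPM with a median of 50.7 in WT. The lowest library of all was Het 1-2, and 3 WT libraries were above every Het library. The log2 fold change was -0.08 ± 0.13 (SE, edgeR adjusted p = 0.919).

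Smad9, the least abundant of the SMADs here, was near the lower limit of what could be counted, with 35 to 59 counts in Het and 25 to 54 in WT. Smad9 (ENSMUSG00000027796, chromosome 3, 54755582 to 54801257, plus strand) had 2.74, 1.81, 1.76, 1.81 and 1.54 CPM in Het, and from 1.07 to 2.38 CPM with a median of 2.12 in WT. Apart from Het 1-2, which exceeded all other libraries, the Het values were below the WT median. Its difference on the log2 scale, 0.04 ± 0.25 (SE, edgeR adjusted p = 0.983), was the least precise of the 10, with an interval of 0.718-fold to 1.48-fold, and without Het 1-2 it was -0.11.

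Smad4, the partner shared by both branches, was about level. Smad4 (ENSMUSG00000024515, chromosome 18, 73639009 to 73703780, minus strand) had 12.5, 14.4, 16.1, 12.6 and 14.1 CPM in Het, and from 9.84 to 17.6 CPM with a median of 13.6 in WT. The Het values lay within the WT range, and the log2 fold change was 0.03 ± 0.13 (SE, edgeR adjusted p = 0.974), with an interval of 0.846-fold to 1.24-fold.

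Of the inhibitory SMADs, Smad7 was lower in Het on average and Smad6 differed little, and neither passed the test. Smad7 (ENSMUSG00000025880, chromosome 18, 75367529 to 75395935, plus strand) had 54.2, 71.4, 70.4, 45.9 and 64.1 CPM in Het, and from 54.7 to 110.7 CPM with a median of 78.7 in WT. All 5 Het libraries were below the WT median, 2 of them below every WT library, and 4 WT libraries were above every Het library. Smad7 averaged 61.2 ± 11.0 CPM in the Het libraries (SD, n = 5), against 80.8 ± 19.2 CPM in the WT libraries (SD, n = 8). The fold was 0.758 with an unadjusted interval of 0.603 to 0.953, and on the log2 scale -0.40 ± 0.16 (SE, edgeR adjusted p = 0.635, unadjusted p = 0.0201). By unadjusted p it ranked 515 of the 16328 genes tested.

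The Smad7 difference was negative in each prefix, at -0.55, -0.38 and -0.18 in mean log2 CPM for prefixes 1, 4 and 5, which was so for no other gene of the 10 in either direction. These values split the same libraries that gave the overall difference, and prefix 1 holds 1 Het library. The share of all genes tested with the same sign in each prefix was not computed. The Smad7 log2 fold change was -0.36 with the prefix as a term (edgeR unadjusted p = 0.0143, adjusted p = 0.389). With the mean of Y-linked genes, a measure of sex, as a covariate it was -0.31 (edgeR unadjusted p = 0.0510, adjusted p = 0.741). Leaving out single libraries gave log2 fold changes from -0.46 to -0.31 and unadjusted p from 0.00501 without WT 5-1 to 0.0757 without Het 5-5. Smad7 varied more than most genes of its abundance. Its coefficient of variation of 0.199 exceeded those of 91.2% of the genes nearest to it in level, while the median over all genes tested was 0.204. WT 1-1, the highest library at 110.7 CPM, and Het 5-5, the lowest at 45.9, differed in prefix as well as genotype. Of the 7 marker lists, the one with the highest r in size to Smad7 across the 13 libraries was that of macrophages and other immune cells, which summed to 83.6 to 168 CPM in Het and 86.5 to 131 CPM in WT (11 of 12 tested, none at 0). This list had 8 positive and 3 negative log2 fold changes, with a median of 0.13 and 0 called. Pearson's r with its mean was -0.57 and Spearman's rho -0.43 (permutation p = 0.0414 and 0.145, adjusted p = 0.414 and 0.678), r was -0.45 without the 2 libraries farthest from the list's median, and the part of these cells in the Smad7 values was not tested. Pearson's r was 0.34 with the mean of the endothelium and pericyte list (Spearman's rho 0.31, permutation p = 0.252 and 0.298) and 0.13 with that of the fibroblast and mesenchyme list (rho 0.10, permutation p = 0.690 and 0.737). Over the 70 relations, the adjusted p of these r were 0.883 and 0.952, and without the 2 libraries farthest from the list's median r was 0.36 and -0.20. Centred within prefix and genotype, r of Smad7 was -0.43 with the immune list, -0.23 with the endothelium and pericyte list and -0.59 with the fibroblast and mesenchyme list (adjusted p of the exact permutation within prefix and genotype 0.863, 0.863 and 0.486).

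Smad6 (ENSMUSG00000036867, chromosome 9, 63953076 to 64022059, minus strand) had 6.23, 6.45, 6.63, 4.19 and 5.32 CPM in Het, and from 4.55 to 7.88 CPM with a median of 6.40 in WT. Het 5-5 was below every WT library and 3 WT libraries were above every Het library. The log2 fold change was -0.11 ± 0.17 (SE, edgeR adjusted p = 0.909), with an interval of 0.727-fold to 1.18-fold. It was -0.02 without Het 5-5, -0.06 without WT 4-1, -0.02 with the Y-linked covariate and -0.06 with the prefix as a term, and the within-prefix differences were 0.02, -0.16 and -0.004. What separated its libraries was the prefix. Smad6 lay at 5.63 to 6.52 CPM in prefix 1, 6.45 to 7.88 in prefix 4 and 4.19 to 5.32 in prefix 5, so that the 4 libraries of prefix 5 were below all others. Prefix accounted for 83.6% of its variance in log2 CPM and genotype for 4.50%. Only 0.563% of all genes tested had more of their variance with prefix, and the median was 22.9%. Its r with the endothelium and pericyte list was 0.66 (rho 0.60, permutation p = 0.0151 and 0.0344, adjusted p = 0.414 for both) and 0.61 without the 2 libraries farthest from the list's median, and -0.32 centred within prefix and genotype. That list summed to 7364 to 10630 CPM in Het and 6722 to 14517 CPM in WT (14 of 14 tested, none at 0), 98.0% of it from Rgs5. With the immune list r of Smad6 was -0.62 (rho -0.57, permutation p = 0.0222 and 0.0473, adjusted p = 0.414 for both), -0.56 without the 2 libraries and -0.84 centred (adjusted p = 0.863, exact permutation within prefix and genotype). The part of either kind of cell in the Smad6 values was not tested.

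**Figure D2:**
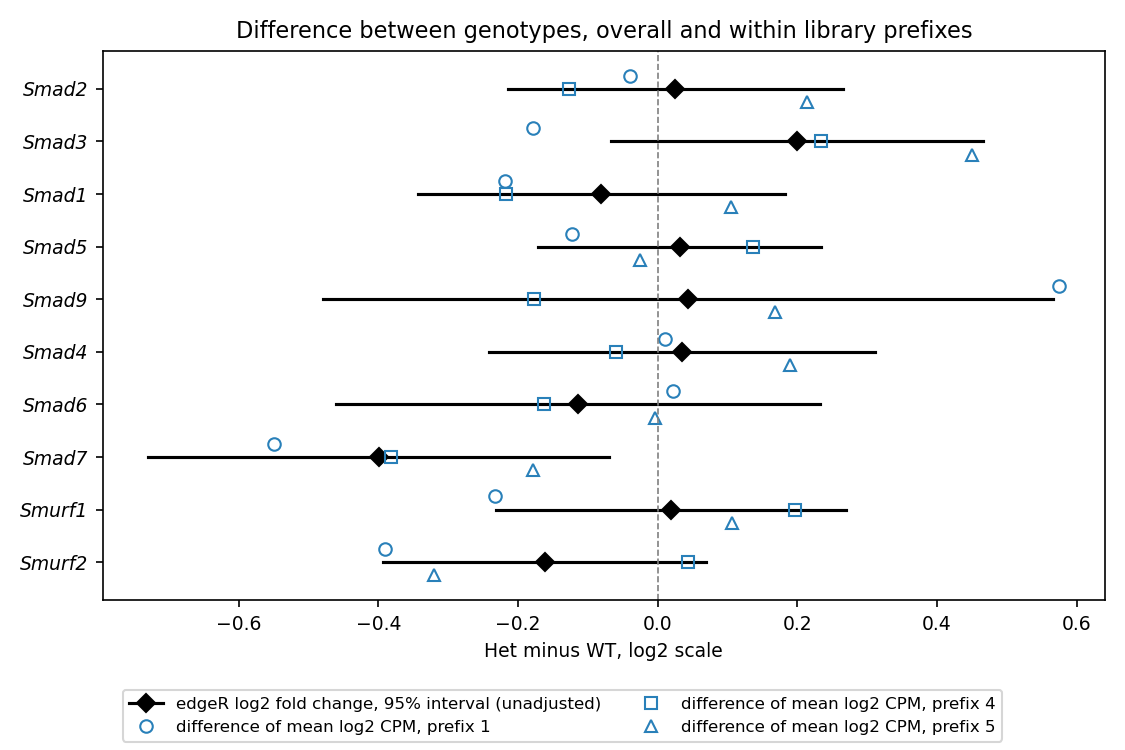
Het minus WT on the log2 scale for the 10 genes: diamonds are edgeR log2 fold changes with unadjusted 95% intervals, and open symbols are differences of mean log2 CPM within library prefixes 1, 4 and 5. All 3 open symbols lie left of 0 for Smad7, at -0.55, -0.38 and -0.18, and on both sides of 0 for the other genes. Prefix 1 holds 1 Het library.

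Prefix had a larger share of the variance than genotype for 8 of the SMAD and Smurf genes, and above 50% for 4 of them. Prefix has more levels than genotype and so takes a larger share even by chance. Over all genes tested the median shares were 22.9% for prefix and 5.33% for genotype. Among the 8, the prefix shares of Smad5 (12.7%) and Smad9 (14.7%) were below that median. Besides Smad6, the genes above 50% were Smad2 (56.8%), Smad1 (54.8%) and Smad4 (54.4%). Of all genes tested, 11.1%, 12.4% and 12.9% had larger prefix shares than these. Smad1 and Smad4 were highest in prefix 4, with means of 55.9 and 15.7 CPM, against 42.9 and 12.5 CPM in prefix 1 and 47.1 and 12.6 CPM in prefix 5, while Smad2 was lowest there. For Smad7 the shares were 38.9% for prefix and 28.5% for genotype, and 8.05% of all genes tested had a larger genotype share than Smad7. Smad3 and Smurf2 had larger shares with genotype (15.3% and 20.7%) than with prefix (14.02% and 13.1%).

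The Smurf ligases differed little between genotypes. Smurf1 (ENSMUSG00000038780, chromosome 5, 144876495 to 144965847, minus strand), first known as a ligase for the BMP receptor SMADs, had 13.7, 16.1, 17.4, 13.8 and 13.98 CPM in Het, and from 12.0 to 17.8 CPM with a median of 15.1 in WT. The groups overlapped, and the log2 fold change was 0.02 ± 0.12 (SE, edgeR adjusted p = 0.984). Smurf2 (ENSMUSG00000018363, chromosome 11, 106820066 to 106920715, minus strand), which acts with Smad7 on the TGF-beta receptors, had 22.6, 29.3, 33.3, 28.7 and 21.8 CPM in Het, and from 26.0 to 33.6 CPM with a median of 30.9 in WT. Het 1-2 and Het 5-6 were below every WT library, and the other Het libraries were inside the WT range. Its log2 fold change was -0.16 ± 0.11 (SE), or 0.894-fold with an interval of 0.762 to 1.05 (edgeR adjusted p = 0.801), with within-prefix differences of -0.39, 0.04 and -0.32. It was -0.10 without Het 1-2 and -0.09 without Het 5-6, the libraries below every WT library (unadjusted p = 0.402 and 0.423), -0.24 without Het 4-5 (unadjusted p = 0.0471) and -0.23 in limma-voom with sample weights (unadjusted p = 0.0482). Over all alternatives its adjusted p ran from 0.571 to 0.975.

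Compared with each other per length, the genes fell into a high, a middle and a low range, and Smad7 was the most abundant. The level used for this is TMM-scaled CPM per kilobase of annotated exon. For Smad7 it was 13.5 ± 2.43 in Het (SD, n = 5), against 17.9 ± 4.24 in WT (n = 8). Smad5, Smad3 and Smad1 followed, with 10.47 ± 0.842, 9.78 ± 1.80 and 7.58 ± 1.02 in Het and 10.2 ± 1.11, 8.52 ± 1.34 and 8.02 ± 1.39 in WT (SD). Below a gap came Smurf2 at 4.41 ± 0.791 in Het and 4.93 ± 0.385 in WT, Smad2 at 4.66 ± 0.826 and 4.57 ± 0.5003, and Smad4 at 3.76 ± 0.395 and 3.67 ± 0.664. Smurf1 had 2.37 ± 0.264 in Het and 2.34 ± 0.331 in WT, Smad6 1.80 ± 0.316 and 1.95 ± 0.357, and Smad9 0.360 ± 0.0868 and 0.350 ± 0.103.

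Only 2 of the steps between neighbours in this order had ranges that did not overlap over the 13 libraries, that from Smad1 to Smurf2 and that from Smad6 to Smad9. Smad7 exceeded Smad5 in 12 of 13 libraries, Smad5 exceeded Smad3 in 9 and Smad3 exceeded Smad1 in 9. Smurf2 and Smad2 did not differ beyond their spread, with Smurf2 higher in 8 libraries, and Smad4 was above Smurf1 in all 13. With the longest transcript as the length there were again 2 such steps, the first then from Smad3 to Smurf2, since Smad1 moved to the place below Smad7.

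Within the SMAD genes the transcripts were shared out differently by branch. Smad7 made up 26.0% ± 3.11 of summed SMAD levels per length in Het (SD, n = 5), against 32.1% ± 5.00 in WT (n = 8). The receptor SMADs of TGF-beta took 27.8% ± 2.30 in Het and 23.9% ± 3.45 in WT, those of BMP 35.5% ± 1.81 in Het and 33.9% ± 2.68 in WT, and Smad4 7.25% ± 0.219 in Het and 6.65% ± 0.957 in WT. The ranges of all these shares overlapped between genotypes, and shares that add up to a whole move against each other. Smad7 stood at 6.17 to 8.54 times the level of Smad6 per length in Het and 7.05 to 12.5 times in WT. The ratio of Smad3 to Smad7 per length was 0.575 to 0.884 in Het and 0.292 to 0.746 in WT. These ratios use the same counts as the differences above and carry no test of their own.

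**Figure D3:**
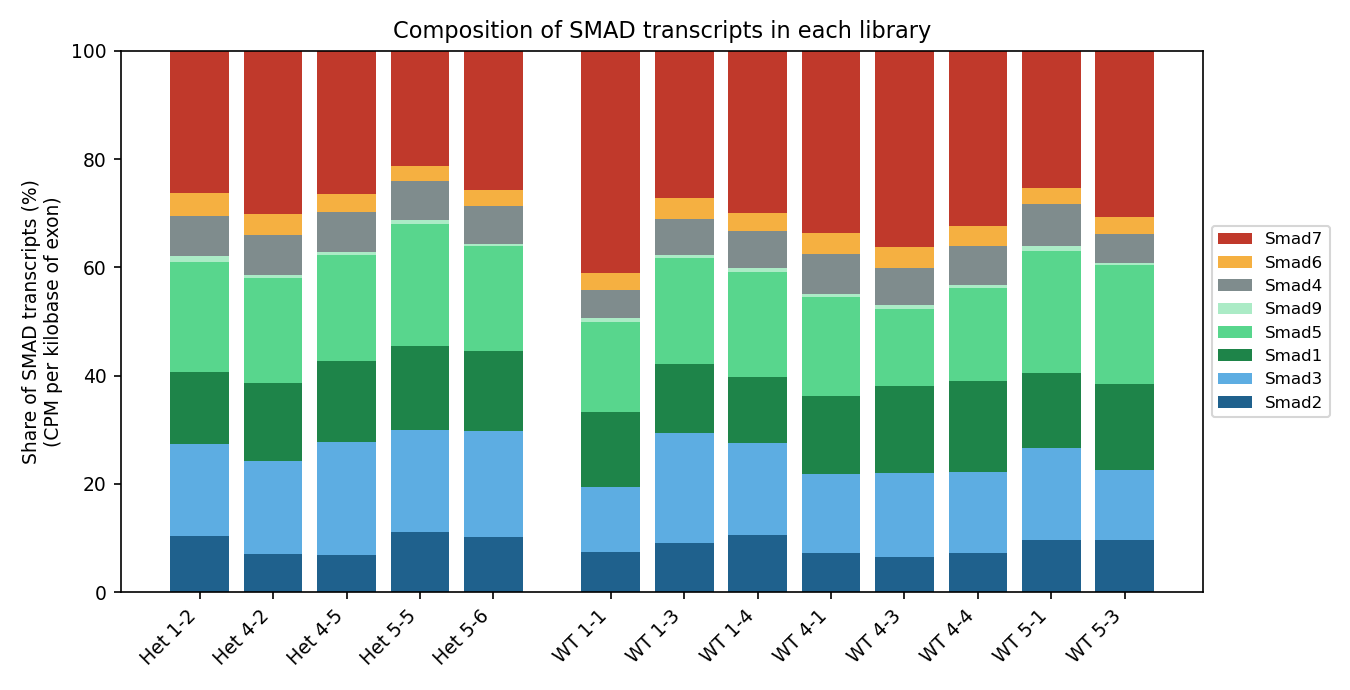
Share of each SMAD gene in the summed SMAD level per length (TMM-scaled CPM per kilobase of exon, %), 1 bar per library, the 5 Het bars left of the 8 WT bars. The top segment, Smad7, runs from 21.4% to 30.1% in Het and from 25.3% to 40.97% in WT.

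Across the 13 libraries the genes moved only loosely with each other. Of 45 pairs, 0 passed an adjusted p of 0.05. The pair with the highest r was Smad6 and Smad7, the inhibitory SMADs, with Pearson's r of 0.74 (permutation p = 0.00435, adjusted p = 0.135) and Spearman's rho of 0.75 (permutation p = 0.00479, adjusted p = 0.111). Without the 2 libraries farthest from the Smad6 median r was 0.52, and with values centred within prefix and genotype it was 0.53 (exact permutation within prefix and genotype, p = 0.330).

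Smad3 and Smad4 had r of 0.72 (permutation p = 0.00600, adjusted p = 0.135) and rho of 0.70 (permutation p = 0.00988, adjusted p = 0.111), with r of 0.46 without the 2 libraries farthest from the Smad3 median. Centred, their r was 0.79, and its exact p of 0.00347 was the smallest that the 288 permutations within prefix and genotype can give, which over 45 pairs makes an adjusted p of 0.156. Smad1 and Smad7 had r of 0.67 (permutation p = 0.0121, adjusted p = 0.182), rho of 0.73 (permutation p = 0.00620, adjusted p = 0.111) and r of 0.60 without 2 libraries. Their centred r was 0.76 (exact permutation within prefix and genotype, p = 0.0938, adjusted p = 0.603). Smad2 ran against the inhibitory SMADs, with r of -0.53 to Smad6 (rho -0.62, permutation p = 0.0626 and 0.0279, adjusted p = 0.450 and 0.179, r of -0.51 without 2 libraries). Centred, that r was 0.24, so its sign changed once prefix and genotype were taken out.

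**Figure D4:**
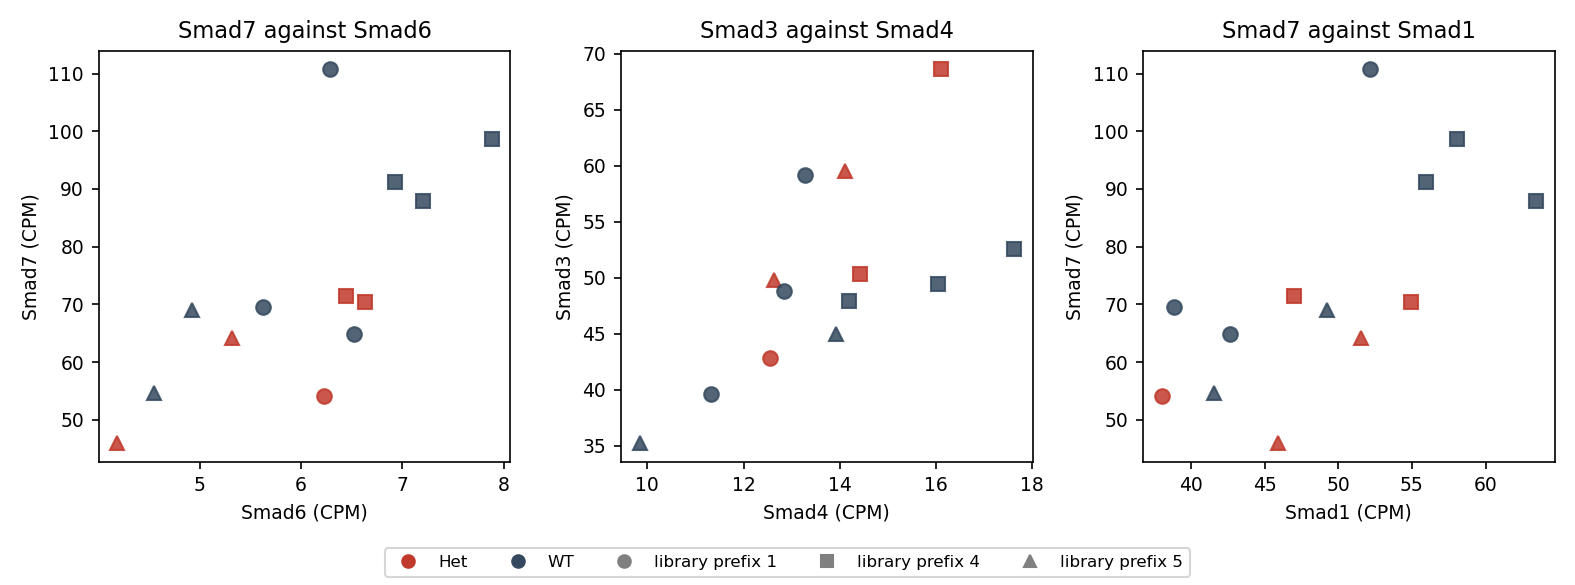
CPM of Smad7 against Smad6, of Smad3 against Smad4 and of Smad7 against Smad1, 1 point per library, Het in red and WT dark, with symbols for the library prefix. In the left panel the 4 libraries of prefix 5 lie lowest on the Smad6 axis, between 4.19 and 5.32 CPM, and WT 1-1 stands above the rest at 110.7 CPM of Smad7.

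The genes whose log2 CPM went most closely with each member over the 13 libraries are given as a description. They had the highest r among the genes tested, with symbols of the Gm and Rik forms and IDs without a symbol left out. For Smad7 they were Ncs1, a neuronal calcium sensor protein, and Hectd4, a HECT-domain protein (Pearson's r 0.96 for both). For Smad6 they were Git1, a scaffold of Arf GTPase signalling, and Cmip (both 0.95). Smad1 went with Ube2e3, a ubiquitin-conjugating enzyme, and Tomm20, a mitochondrial import receptor (both 0.91), Smad3 with H2afv (0.90) and Rps6kc1 (0.88), and Smad4 with Arhgef10l (0.90) and Ptprk, a receptor tyrosine phosphatase (0.86). Smad2 went with Sacm1l and Gpbp1 (0.89 and 0.88), Smad5 with Spin4 and Btbd7 (0.85 and 0.84), and Smad9 with Pappa and Zfp7 (0.81 and 0.80). Smurf1 went with Polr3d and the keratin Krt15 (0.90 and 0.84) and Smurf2 with Cyp2d22 and Ccdc8 (0.82 and 0.81). None of these genes was itself a SMAD or a Smurf.

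Lists of pathway genes, of which the target lists also hold Smad6 or Smad7, gave 0 calls in every one of 6 lists. Some genes are in several lists and are counted in each, so the lists are not separate observations. The lists were chosen with earlier results of these data known, so their shares beside those of all genes are a description only. Skil, Ski and Tgif1 are nuclear partners and TGF-beta targets, and Dlx3 and Runx2 nuclear partners and BMP targets. Pmepa1 is in the transport and TGF-beta target lists, and Bambi in the receptor and BMP target lists. The receptors (15 of 19 genes tested, 9 negative, median log2 fold change -0.02) were led by Bmpr2, the type II BMP receptor, at -0.28 ± 0.10, and Acvr2a, an activin receptor, at 0.31 ± 0.14 (SE, edgeR adjusted p = 0.566 and 0.706). Tgfbr2 itself was 0.22 ± 0.11 (SE, edgeR adjusted p = 0.741). Counts of the gene do not tell the mutant from the normal copy and so do not check the genotypes.

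The list of other ubiquitin ligases, deubiquitinases and related genes of the pathway (24 tested, 10 negative, median 0.05) was led by Fbxw7 and Nedd4l. Fbxw7, a substrate receptor of an SCF ubiquitin ligase, had -0.40 ± 0.13 (SE, edgeR adjusted p = 0.404). Nedd4l, a relative of the Smurfs that acts on activated Smad2 and Smad3, had 0.27 ± 0.14 (SE, edgeR adjusted p = 0.741). Phosphatases, anchors and transport proteins (24 tested, 13 negative, median -0.04) were led by Pmepa1, a membrane protein that holds Smad2 and Smad3 away from the receptor, at -0.54 ± 0.19, and Ipo7, an importin, at -0.29 ± 0.10 (edgeR adjusted p = 0.514 and 0.530). Nuclear partners (33 of 35 tested) had 24 negative members, or 72.7%, where 50.9% of all genes were negative, and a median of -0.15. They were led by Tob2 at -0.46 ± 0.18 and Zfp423, a zinc finger partner of BMP SMADs, at -0.63 ± 0.26 (edgeR adjusted p = 0.629 and 0.648). Skil, a corepressor of SMADs and itself a TGF-beta target, had -0.37 ± 0.16 (edgeR adjusted p = 0.675), and is named with its values already known.

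Of the TGF-beta target genes, 16 of 23 tested were negative (69.6%, median -0.18), and 5, or 21.7%, were lower at an unadjusted p under 0.05, where 4.18% of all genes were. Among them were Pmepa1, Snai1, Skil and Smad7, which is described above. Without Smad7, 15 of 22 were negative (median -0.18) and 4, or 18.2%, were lower at that p. Because the list was chosen with earlier results known, these shares cannot show an excess over all genes. Snai1, a repressor of epithelial genes, had -0.47 ± 0.17 (SE, edgeR adjusted p = 0.566). Of the BMP target genes, 12 of 17 tested were negative (70.6%, median -0.14), with Smad7 and Id3, an inhibitor of helix-loop-helix factors, leading. Without Smad6 and Smad7, 10 of 15 were negative (median -0.14) and 0 were lower at an unadjusted p under 0.05. Id3 was on the higher side in Het, at 0.22 ± 0.11 (edgeR adjusted p = 0.728). Both target lists hold genes of bone and mesenchyme, such as Col1a1 and Postn in the first and Sp7 and Runx2 in the second. All 11 of 11 tested members of the osteoblast and odontoblast list had negative log2 fold changes in the edgeR fit, with a median of -0.29, although Dspp, the odontoblast gene, averaged 2.55 log2 CPM in Het and 0.82 in WT (fitted -0.41 ± 1.28). In the same fit all 9 of 9 tested skeletal muscle markers were negative too, with a median of -0.51 and sums of 13.7 to 76.4 CPM in Het and 11.2 to 190 CPM in WT (none of the list's 10 genes at 0). The sum of 190 CPM was that of WT 1-4 alone, and the next highest WT library had 55.4 CPM. By mean log2 CPM, Ckm (1.53 in Het, 1.38 in WT) and Ttn (1.30 and 1.18) were higher in Het and the other tested muscle markers lower. The immune list and the nerve and Schwann cell list leaned the other way, with 8 of 11 and 6 of 8 tested markers positive (medians 0.13 and 0.22). The part of any of these cells in the target lists was not tested.

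Reads of these genes could hardly be confused with those of others. Of the 75-base stretches in annotated transcripts of each gene, 0 were shared with another gene's transcripts on either strand, except in Smad5, where 26 of 7556 (0.344%) also lie in the small RNA gene Gm27301. No gene on the opposite strand overlapped an exon of the 10. Smad4 holds an annotated pseudogene (AC132418.2) on the other strand outside its exons, and Smurf2 shares 58 exon bases (0.941%) with the miRNA gene Gm27322, which had 0 counts.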

How the data were processed

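Enamel organs of 5 Het and 8 WT mice were profiled by RNA-seq. Per the labels' protocols the libraries came from an unstranded Nextera XT kit and were sequenced in 2 runs as single reads of 75 bases. STAR 2.5.2a and GRCm38 are named in the submitters' processing notes, and DESeq2, edgeR and limma without their role. No counting tool is named in the sources used here. Raw counts per gene were deposited by the authors and were used for every test. Also deposited were a filtered copy, used as an alternative filter, and a normalized signal per gene (CPM with TMM scaling, per the table's name), from which no result here was computed. Columns name the genotype but no replicate number of the labels, so they were assigned to genotypes only. No 2 libraries agreed within sampling noise (lowest chi-square per gene 11.4 over 78 pairs). Another 24 features that are not mouse genes held at most 0.000177% of counts and were left out.

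Genes were filtered with filterByExpr (count minimum 10) and tested with edgeR 4.0.16 in R 4.3.3 (TMM, robust glmQLFit, glmQLFTest, Benjamini-Hochberg over 16328 genes, threshold 0.05). The script was tested on simulated data. SE come from the F statistic, and 95% intervals are not adjusted over genes. CPM are scaled by TMM, and log2 CPM have a prior count of 2. The depth of 18852382 counts and more per library left Smad9 with 25 to 59 counts and Smad7 with 1119 to 2289. Symbols were found for 48349 of 48709 gene IDs in a table of gene names. Lengths and positions are from GENCODE M21, since the sources used here do not give the authors' annotation. Correlations are of log2 CPM, with 100000 two-sided permutations. Alternatives were other factors and filters, DESeq2 1.42.0, limma-voom 3.58.1 with sample weights, covariates and leaving out each library. The members and lists were chosen with earlier results of these data known. Named besides them are Tgfbr2, the 2 genes of smallest p in each pathway list, the 2 of highest r with each member and genes that share their reads. Symbols of the Gm and Rik forms and IDs without a symbol were left out of the choice by r. Skil and the marker genes given with values were picked outside this rule with their values known, and other genes serve to say what a list holds. The relations with marker lists, permutation within prefix and genotype, and target lists without their SMAD genes, were added after seeing the data. The values of 1 gene of the TGF-beta target list are not reported here.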

Additional observations from a re-analysis of the deposited data

Results flagged for a closer look

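Smad9 in Het 1-2 stood apart from the other Het libraries, at 2.74 CPM, where the next highest Het library had 1.81 CPM and the highest WT library 2.38 CPM. The gap was 0.773 of the whole range of the 5 Het libraries. It rests on 59 counts against 35 to 50 in the other Het libraries. Chance flags about 1 in 20 groups, and 20 groups (10 genes in 2 genotypes) were looked at, of which 1 was flagged.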

How the results depend on the processing

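None of the SMAD and Smurf genes was called under any of the 23 alternatives, with a lowest adjusted p of 0.327, and the counts of called genes in the 6 pathway lists did not move. The count of calls over all genes was 14 in edgeR and moved to 27 when low genes were kept, 25 when 1 CPM in 5 libraries was asked for, 30 with the library prefix as a term, 71 with DESeq2 and 27 with limma-voom and sample weights. Leaving out 1 library gave 6 to 22. The log2 fold changes of genes near 0 changed sign. That of Smad2 was -0.011 with the Y-linked covariate and -0.0019 with limma-voom, those of Smad5 and Smurf1 -0.0053 and -0.019 with limma-voom. Over the fits without 1 library Smad2 ran from -0.051 to 0.103, Smad4 from -0.0214 to 0.0961, Smad5 from -0.0145 to 0.0787, Smad9 from -0.108 to 0.114 and Smurf1 from -0.0322 to 0.0601. The cause was not tested. Smad1, Smad3, Smad6, Smad7 and Smurf2 kept their sign in all of these fits. No paired analysis was possible because the columns carry no replicate numbers of the labels. The fit with the library prefix as a term uses that block and takes up what libraries of 1 prefix share.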
